A study of Mus musculus with 12 samples.

Results

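Fc receptors bind the constant part of antibodies, and this account covers 9 genes of antibody binding and antibody transport in the mouse lung. They were chosen by symbol from the 55414 genes of the deposited expression table, and all 9 were found there and passed the filter on low values. For Fcmr the 6 control lungs alone were enough to pass it. Fcgr1, Fcgr3 and Fcgr4 encode activating receptors for IgG, and Fcer1g encodes the signalling chain they share. Fcgr2b encodes the inhibitory IgG receptor, Fcer2a (CD23) the low-affinity IgE receptor, and Fcmr the IgM receptor. Fcgrt encodes the heavy chain of the neonatal Fc receptor, which recycles IgG, and Pigr the receptor that carries polymeric IgA and IgM across epithelium.

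Total RNA of whole lung from 12 C57BL/6J mice was sequenced, with 1 library per mouse. There were 6 IL-10 B-WT mice (control lungs below) and 6 of the genotype IL-10 B-KO (knockout lungs below). All 12 mice had received lipopolysaccharide (LPS) into the airways, a model of acute lung injury, and all lungs were taken on day 4, so no lung here is without LPS. IL-10 B-KO mice came from crossing Il10 flox/flox animals with Mb1-Cre animals, in which the Cd79a locus drives Cre in the B lineage. IL-10 B-WT mice are described as the matching wild-type controls, and their flox and Cre alleles are not spelled out in the sources used here. The study's methods place lavage of the airways before the lungs were removed.

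As background, an antibody-coated particle that crosslinks activating Fc receptors leads to phosphorylation of the ITAM motifs of the shared chain, recruitment of the kinase Syk and phagocytosis or an oxidative burst. Fcgr2b carries an ITIM motif instead, which recruits the phosphatase SHIP-1 (Inpp5d) and dampens that signal. Macrophages, monocytes and neutrophils carry different mixtures of these receptors, whereas Fcmr and Fcer2a are best known on B cells, Fcgrt on endothelium, epithelium and myeloid cells, and Pigr on secretory epithelium.

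Values are TPM, an abundance scaled by gene length and library total, and fold changes are IL-10 B-KO minus IL-10 B-WT on the log2(TPM + 1) scale with a standard error (SE). The TPM of the 12 libraries summed to 991646 to 994430 and 21380 to 24138 genes were above 0, and TPM keep no read depth, so the depth behind a value is unknown. Two-sided tests came from limma over the 15148 genes that passed the filter, with Benjamini-Hochberg adjustment, and a call needed an adjusted p no higher than 0.05 and a log2 fold change of 1 or more in either direction. Il10 was between 0 and 0.88 TPM in control and between 0 and 0.58 TPM in knockout lungs, too low in whole lung to check the deletion. Cd79a was 15.3 TPM or more in every IL-10 B-WT lung and 0 to 0.05 TPM in 4 IL-10 B-KO lungs, with 4.35 and 5.73 TPM in IL-10 B-KO 2 and IL-10 B-KO 6. Ms4a1 (CD20), another gene that defines B cells, was between 0.08 and 0.13 TPM in those same 4 IL-10 B-KO lungs, although the label names only Il10 as lost from B cells. In the myeloid genes below, IL-10 B-WT 1 lay among the knockout lungs and IL-10 B-KO 2 among the control lungs, and IL-10 B-WT 2 held the highest summed level of the B cell markers.

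None of the 9 genes passed the threshold in the 12 lungs, beside 0.495% of all tested genes. At an unadjusted limma p up to 0.05 there were 6 of 9, beside 12.5% of all tested genes. Of these, 5 were higher in knockout lungs (6.83% of all genes were so) and 1 was lower (5.71% of all genes). The higher ones were Fcgr1, Fcgr3, Fcgr4, Fcer1g and Fcgr2b, and the lower one was Fcmr. The median log2 fold change was 1.54 over the 9 genes and 0.10 over all tested genes.

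**Figure D1:**
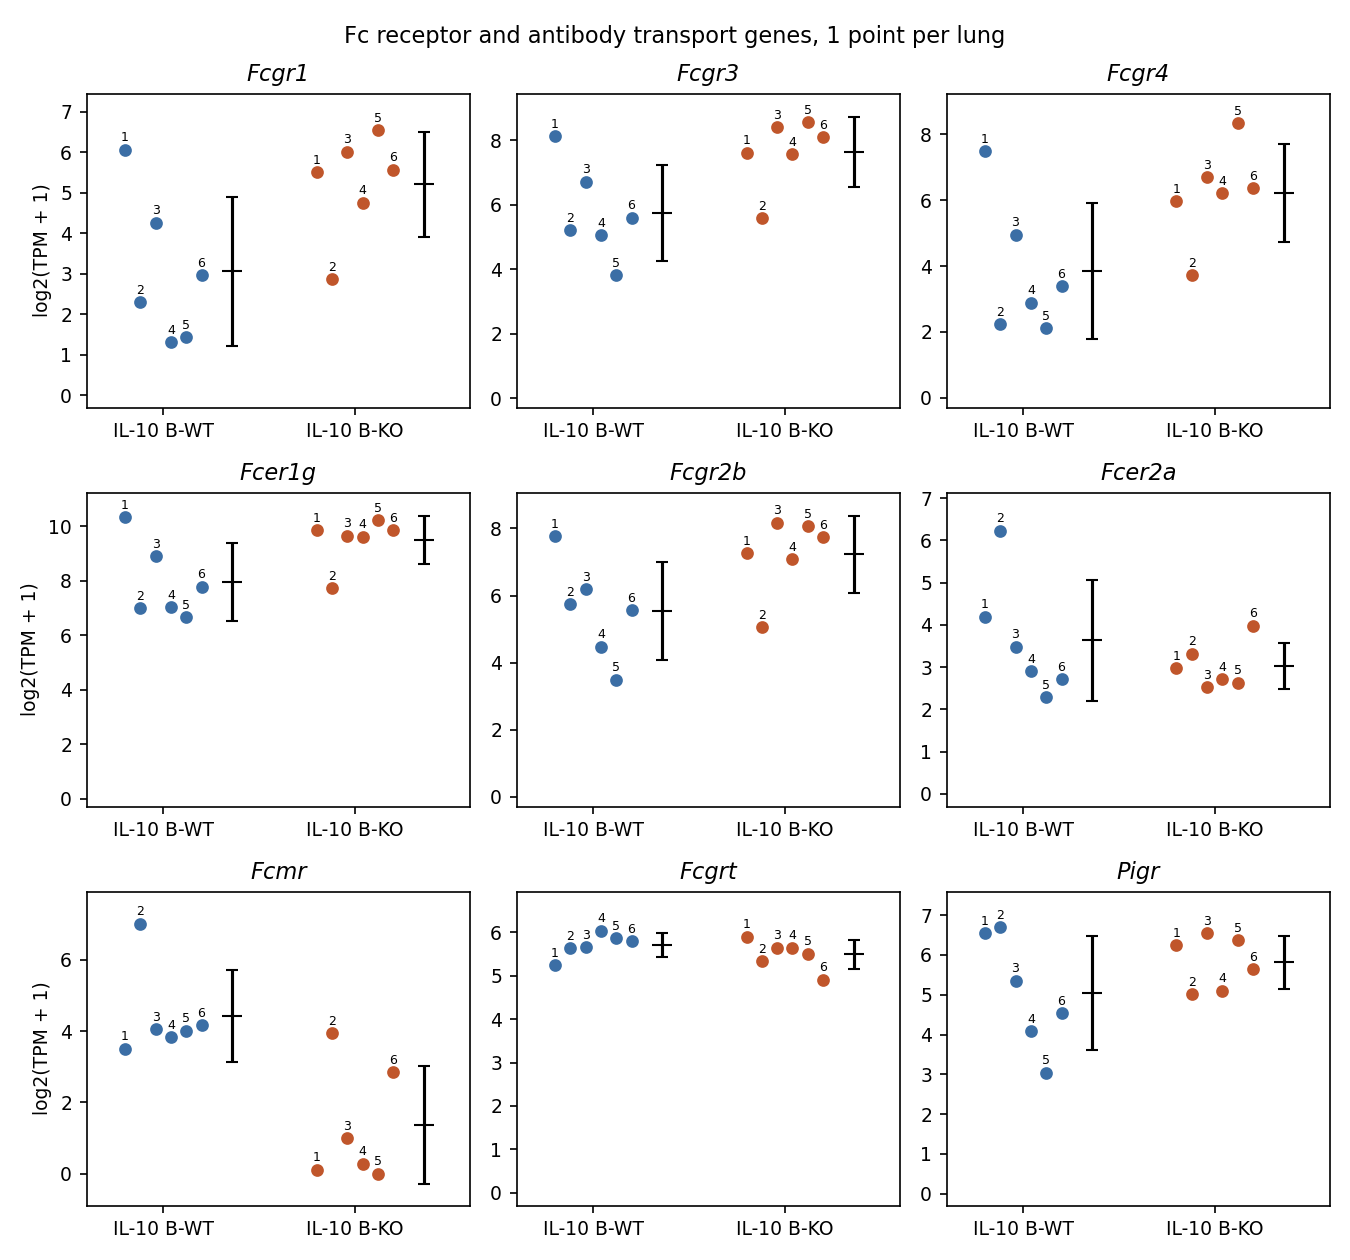
Each panel plots 1 gene as log2(TPM + 1), with 1 point per lung (blue IL-10 B-WT, orange IL-10 B-KO, numbered by library) and a bar for the mean ± SD of 6 lungs. IL-10 B-WT 1 lies among the knockout lungs for the first 5 genes, IL-10 B-KO 2 lies among the control lungs, and 4 knockout lungs lie near the bottom for Fcmr.

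The 5 genes named first lie mostly in 1 place. Fcgr2b (chr1:170958617-170976547, minus strand), Fcgr4 (chr1:171018920-171029761, plus strand), Fcgr3 (chr1:171051174-171064935, minus strand) and Fcer1g (chr1:171229572-171234365, minus strand) share 275.7 kb of chromosome 1 in the GENCODE M21 annotation of GRCm38.p6. Fcgr1 is apart from them, at chr3:96282909-96293969 on the minus strand. Of the other 7 protein-coding genes in that stretch of chromosome 1, 6 were tested, 2 higher and 4 lower in knockout lungs, and 0 had an unadjusted limma p up to 0.05 or passed the threshold. The nearest to Fcer1g, Apoa2 and Tomm40l, had log2 fold changes of -0.10 ± 0.26 (SE, n = 6 per group) and 0.26 ± 0.15 (SE, n = 6 per group).

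The promoters of these 5 genes are shown because the genes varied together across lungs. They are RefSeq windows on GRCm38.p6 from 250 bases before to 50 bases after the annotated start, 300 bases each, written 5′ to 3′ along the gene's strand, and for Fcgr3 the first of 2 listed windows is given. Capitals mark AGGAAG on either strand (CTTCCT when on the other), a longer word around GGAA, the core letters bound by ETS factors such as PU.1.
Fcgr1, chr3:96293920-96294219, minus strand: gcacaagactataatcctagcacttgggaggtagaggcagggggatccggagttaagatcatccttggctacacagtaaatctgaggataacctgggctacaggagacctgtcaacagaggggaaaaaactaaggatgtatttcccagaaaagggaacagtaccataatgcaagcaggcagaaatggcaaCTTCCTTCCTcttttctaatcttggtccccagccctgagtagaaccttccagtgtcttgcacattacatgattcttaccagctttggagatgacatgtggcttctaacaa
Fcgr3, chr1:171059354-171059653, minus strand: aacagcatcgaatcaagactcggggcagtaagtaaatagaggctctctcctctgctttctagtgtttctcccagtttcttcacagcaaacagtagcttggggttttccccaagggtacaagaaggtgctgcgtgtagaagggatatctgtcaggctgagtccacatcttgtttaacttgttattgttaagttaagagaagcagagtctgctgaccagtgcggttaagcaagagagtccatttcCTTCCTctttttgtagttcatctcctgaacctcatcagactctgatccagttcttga
Fcgr4, chr1:171018676-171018975, plus strand: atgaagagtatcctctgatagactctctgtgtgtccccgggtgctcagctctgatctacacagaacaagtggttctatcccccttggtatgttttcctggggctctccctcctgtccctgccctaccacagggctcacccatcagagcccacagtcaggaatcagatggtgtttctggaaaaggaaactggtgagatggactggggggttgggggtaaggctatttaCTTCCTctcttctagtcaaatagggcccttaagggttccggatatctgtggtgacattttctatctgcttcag
Fcer1g, chr1:171234300-171234599, minus strand: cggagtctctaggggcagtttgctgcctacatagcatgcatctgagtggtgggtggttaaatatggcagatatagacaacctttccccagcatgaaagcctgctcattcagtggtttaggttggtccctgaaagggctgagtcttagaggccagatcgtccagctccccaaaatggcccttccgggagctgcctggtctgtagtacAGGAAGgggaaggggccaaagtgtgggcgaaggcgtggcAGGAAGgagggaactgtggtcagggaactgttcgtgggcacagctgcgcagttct
Fcgr2b, chr1:170976022-170976321, minus strand: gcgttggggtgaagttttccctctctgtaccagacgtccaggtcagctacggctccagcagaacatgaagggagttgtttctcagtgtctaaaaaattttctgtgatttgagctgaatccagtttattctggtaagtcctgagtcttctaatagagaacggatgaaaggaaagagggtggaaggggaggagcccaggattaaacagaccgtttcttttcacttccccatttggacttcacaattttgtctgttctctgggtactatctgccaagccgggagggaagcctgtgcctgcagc

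AGGAAG was present in 4 of these 5 windows, all but that of Fcgr2b, and in 6 of the 9 genes' windows. The shorter GGAA was not counted, and the Fcgr2b window does hold it. By comparison 35.4% of all 32851 promoter windows hold AGGAAG, so its presence is common. The STAT-type letters TTCNNNGAA, also searched on both strands, were in the windows of Fcgr1 and Pigr and in 8.30% of all windows. These are matches of letters and no binding was measured.

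Reads of Fcgr2b and Fcgr3 may not be fully separable. The outer parts of both receptors are encoded by near-identical exons, and their longest coding sequences, 1020 and 801 bases, share the following 129 bases without a mismatch (bases 278 to 406 of Fcgr2b and 263 to 391 of Fcgr3, counted from the start codon).
Fcgr2b and Fcgr3, shared coding stretch: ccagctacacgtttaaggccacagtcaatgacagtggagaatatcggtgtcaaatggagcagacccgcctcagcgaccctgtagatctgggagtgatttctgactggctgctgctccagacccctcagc

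Of the 50-base words of the Fcgr3 coding sequence, 22.1% occurred in that of Fcgr2b, and 17.1% in the other direction. No 50-base word was shared by Fcgr1 or Fcgr4 with any of the other IgG receptor genes. RSEM divides reads that fit several genes by estimation, so the Fcgr2b and Fcgr3 levels each carry an unknown part of that division.

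Fcgr1 encodes the high-affinity IgG receptor of monocytes and macrophages. In control lungs it ranged from 1.48 to 65.7 TPM with a median of 5.40, and in knockout lungs from 6.29 to 92.4 TPM with a median of 45.45. All 6 knockout lungs were above the control median, but the groups overlapped, since IL-10 B-WT 1 was at 65.7 TPM and IL-10 B-KO 2 at 6.29 TPM. The log2 fold change was 2.15 ± 0.80 (SE, n = 6 per group) and the limma adjusted p was 0.328 (exact permutation p = 0.0455). With 924 arrangements the smallest p of that exact test is 0.00216.

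Fcgr4, an activating receptor with a preference for some IgG2 subclasses, had the highest log2 fold change of the 9. It ranged from 3.34 to 177 TPM with a median of 7.92 in control lungs. In knockout lungs it ranged from 12.2 to 322 TPM with a median of 77.7. Only IL-10 B-WT 1 among the controls exceeded the knockout median, and IL-10 B-KO 5 was above every control. The log2 fold change was 2.37 ± 0.90 (SE, n = 6 per group) and the limma adjusted p was 0.330 (exact permutation p = 0.0476).

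Fcgr3, the low-affinity activating receptor found on most myeloid cells, was the highest of the IgG-binding chains in knockout lungs. Its level was 13.1 to 278 TPM (median 41.7) in control lungs and 47.0 to 374 TPM (median 233) in knockout lungs. IL-10 B-KO 3 and IL-10 B-KO 5 were above every control, and the other 4 knockout lungs lay within the range of the controls, IL-10 B-KO 2 lowest. The log2 fold change was 1.88 ± 0.66 (SE, n = 6 per group) and the limma adjusted p was 0.304 (exact permutation p = 0.0390).

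Fcer1g, the chain that carries the ITAM for the 3 activating receptors and for the high-affinity IgE receptor, was the most abundant of the 9 genes per length. It ranged from 100.3 to 1298 TPM with a median of 175 in control lungs, and from 213 to 1205 TPM with a median of 868 in knockout lungs. The highest value of all 12 lungs was that of IL-10 B-WT 1, and the other 5 control lungs were at 478 TPM or less. The log2 fold change was 1.54 ± 0.60 (SE, n = 6 per group) and the limma adjusted p was 0.342 (exact permutation p = 0.0455).

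The inhibitory receptor Fcgr2b was higher along with the activating ones. Its level was 10.2 to 216 TPM (median 49.6) in control lungs and 32.1 to 288 TPM (median 182) in knockout lungs. Of the knockout lungs, 5 were above the control median and IL-10 B-KO 2 was below it. The log2 fold change was 1.69 ± 0.66 (SE, n = 6 per group) and the limma adjusted p was 0.343 (exact permutation p = 0.0563).

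**Figure D2:**
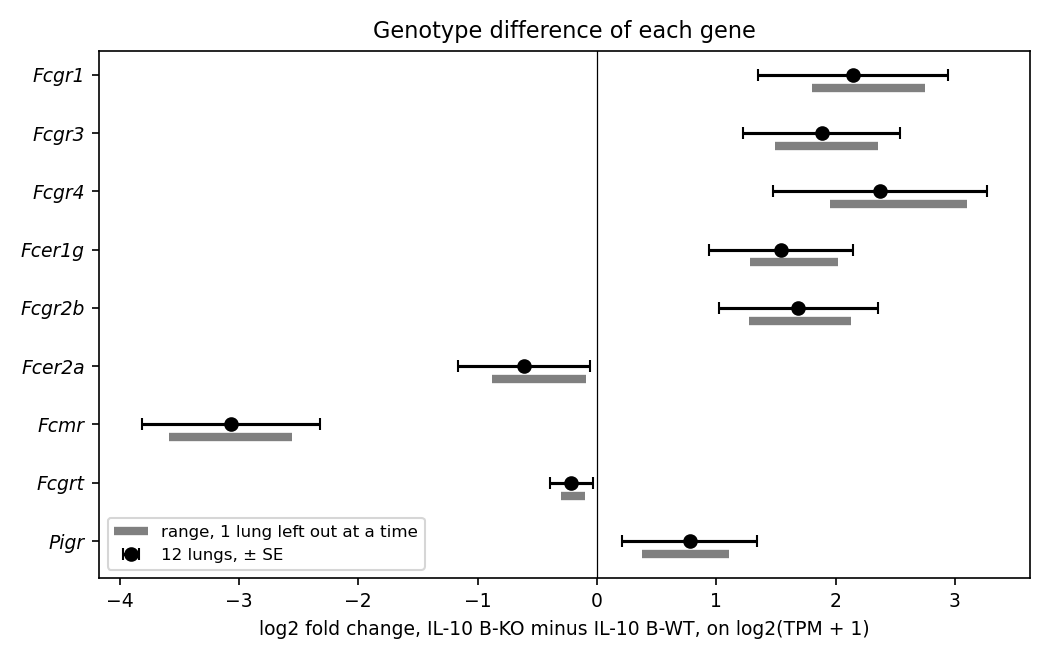
Points give the log2 fold change of each gene on the log2(TPM + 1) scale, IL-10 B-KO minus IL-10 B-WT, with bars of ± 1 SE over 12 lungs, and grey bars give its lowest and highest value when each lung is left out in turn. Fcgr1, Fcgr3, Fcgr4, Fcer1g, Fcgr2b and Pigr lie to the right of 0 and Fcer2a, Fcmr and Fcgrt to the left in all 12 such fits.

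IL-10 B-WT 1 was the highest control lung and IL-10 B-KO 2 the lowest knockout lung for each of these 5 genes. IL-10 B-WT 1 ranked between 1 and 3 among the 12 lungs for each of the 5 genes, and IL-10 B-KO 2 ranked between 8 and 10. Without IL-10 B-WT 1, the limma adjusted p was 0.0394 for Fcgr1, 0.0390 for Fcgr3, 0.0365 for Fcgr4, 0.0383 for Fcer1g and 0.0532 for Fcgr2b. In that fit 3.85% of all tested genes passed, against 0.495% in the 12 lungs. Leaving out the highest control lung by itself also widens such a difference. Without IL-10 B-KO 2 alone, the limma adjusted p stayed above 0.05 for all 5, at 0.102 for Fcgr1 and 0.0873 for Fcgr3. With both left out, 6 of the 9 genes passed, beside 9.69% of all tested genes, 5 higher (7.07% of all genes) and Fcmr lower (2.62%). Fcgr4 then had a log2 fold change of 3.60 ± 0.55 (SE, n = 5 per group) and Fcgr2b of 2.57 ± 0.45 (SE, n = 5 per group). Both libraries were picked after their values had been seen, and leaving out the highest control and the lowest knockout lung (for Fcmr, the lowest control and the highest knockout lung) widens any such difference, so the counts with both left out are a description and not a further test.

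Across lungs the 5 genes went up and down together. Within the 6 control lungs, Pearson's r of log2(TPM + 1) over the 10 pairs of genes was between 0.863 and 0.992, and within the 6 knockout lungs between 0.905 and 0.997. These are descriptions, as the points share a library and its total. By the same measure, with the genotype means removed over 12 lungs, Cxcl16 was among the 2 nearest to Fcgr1 (r = 0.983), and Clec12a and Fxyd5 were nearest to Fcgr3 (r = 0.992 for each). Smox and Hk3 were nearest to Fcgr4 (r = 0.986 and 0.985), and the predicted genes Gm21188 and Gm36161 to Fcer1g (r = 0.990 and 0.988). For Fcgr2b they were Cyba, a subunit of the phagocyte oxidase, and the lysosomal enzyme Ctsa (r = 0.992 for each).

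**Figure D3:**
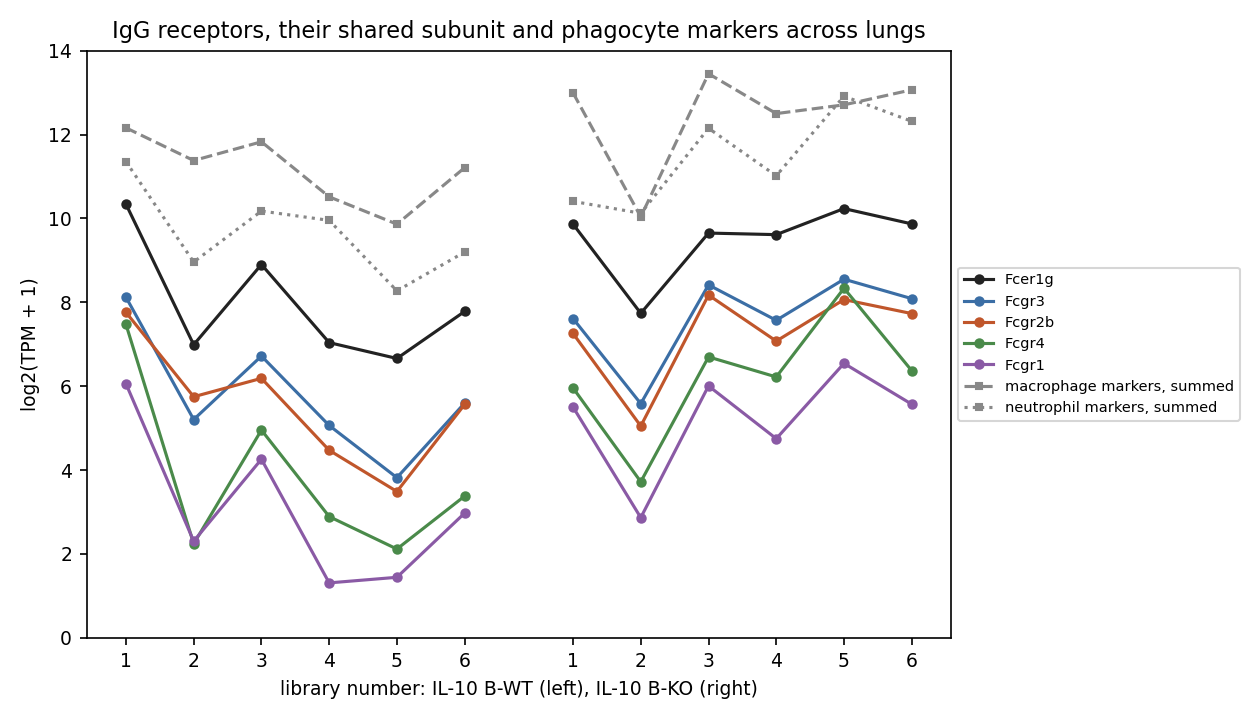
Lines join the 6 lungs of each genotype (IL-10 B-WT left, IL-10 B-KO right) for 5 genes and, in grey, for the summed TPM of 10 macrophage and 9 neutrophil markers, all as log2(TPM + 1). The lines of the 5 genes run nearly in parallel, high in IL-10 B-WT 1 and low in IL-10 B-KO 2, and the joining lines carry no order. The marker sums are also highest among controls in IL-10 B-WT 1 and lowest among knockouts in IL-10 B-KO 2, but follow less closely elsewhere. From IL-10 B-KO 1 to IL-10 B-KO 3 the neutrophil sum goes from 1358 to 4550 TPM, and Fcer1g from 932 to 804 TPM.

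Markers of phagocytes were higher beside these receptors. All 10 macrophage markers were higher in knockout lungs, 6 at the unadjusted limma limit of 0.05 and 0 past the threshold. Their summed level was 931.5 to 4581 TPM (median 2520) in control lungs and 1051 to 11210 TPM (median 7435) in knockout lungs, and the lowest knockout value was again that of IL-10 B-KO 2. Apoe and C1qb, the most abundant of them, had log2 fold changes of 1.25 ± 0.61 and 1.65 ± 0.58 (SE, n = 6 per group). All 9 neutrophil markers were higher at that unadjusted limit, with 0 past the threshold, and their sum was 308.7 to 2623 TPM in control and 1115 to 7727 TPM in knockout lungs. S100a9 and S100a8, the most abundant, had log2 fold changes of 1.87 ± 0.55 and 1.94 ± 0.62 (SE, n = 6 per group). Of the 9 monocyte markers 8 were higher and 1 was lower, 3 and 1 of them at the unadjusted limit and 0 past the threshold. Ace and Ly6c2, the most abundant, had log2 fold changes of 0.28 ± 0.20 and 1.90 ± 0.81 (SE, n = 6 per group), and the lower one was Nr4a1 at -0.71 ± 0.31 (SE, n = 6 per group). In control lungs Ace was 365.5 to 591 TPM, where Ly6c2 was 36.3 to 1019 TPM. The cells that Ace RNA came from were not tested, so Ace may not mark monocytes in whole lung. Of the alveolar macrophage markers 9 of 9 were higher (8 when rescaled without immunoglobulin genes, 7 after median centring or quantile normalization), but only 2 at the unadjusted limit and 0 past the threshold. Chil3 and Ear2, the most abundant, were at 1.77 ± 0.70 and 0.38 ± 0.40 (SE, n = 6 per group). In whole lung, more cells of a type and more RNA per cell cannot be told apart, and the part that phagocyte numbers have in the receptor levels was not tested. No defining marker of these 4 lists was at 0 in all lungs of a genotype.

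Taken per marker RNA, the groups also overlapped. Much of the macrophage sum was Apoe, with 2418 of 4581 TPM in IL-10 B-WT 1 and 6694 of 8589 TPM in IL-10 B-KO 6. Shares of that sum, and which lungs exceed every control, therefore depend heavily on Apoe, and shares without it were not computed. Fcgr3 was 1.35% to 6.07% (median 2.11%) of the summed macrophage markers in control lungs and 2.38% to 5.59% (median 3.21%) in knockout lungs, so that no knockout lung exceeded every control. Of the summed neutrophil markers it was 3.27% to 10.6% (median 7.65%) and 4.22% to 14.3% (median 6.40%). Against the summed monocyte markers it was 2.40% to 16.8% (median 6.26%) in control and 6.19% to 19.7% (median 17.4%) in knockout lungs, where 4 knockout lungs exceeded every control. Ace made up much of the monocyte sum, at 365.5 to 591 TPM beside sums of 546.3 to 1656 TPM in control lungs. In knockout lungs Ace was 375 to 790 TPM beside sums of 759 to 1925 TPM. The gap between these medians therefore depends on Ace, and shares without it were not computed. Whether Ace stands for monocytes in whole lung was not tested. Fcer1g was 4.72% to 28.3% (median 10.0%) of the macrophage markers in control lungs and 7.17% to 20.2% (median 12.5%) in knockout lungs. Of the neutrophil markers it had the lower median in knockout lungs, at 13.2% to 49.5% (median 34.9%) in control and 15.6% to 68.6% (median 18.7%) in knockout lungs. Against the macrophage markers, the group medians of Fcgr1 and Fcgr4 lay further apart, as a ratio, than those of Fcgr3. Fcgr1 was 0.101% to 1.43% (median 0.237%) of them in control and 0.447% to 1.38% (median 0.554%) in knockout lungs. Fcgr4 was 0.140% to 3.86% (median 0.418%) and 0.749% to 4.81% (median 1.06%), with 1 knockout lung above every control.

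The balance of activating to inhibitory receptor was then read within each lung, where the library total cancels. The ratio of Fcgr3 to Fcgr2b was 0.680 to 1.53 (median 1.28) in control and 1.18 to 1.46 (median 1.34) in knockout lungs. The lowest ratio of Fcgr3 to Fcgr2b was that of IL-10 B-WT 2, the library with the highest B cell gene levels. Fcgr2b is also expressed by B cells, and their part in that ratio was not tested. The ratio of Fcgr4 to Fcgr2b was 0.0707 to 0.819 (median 0.315) in control and 0.357 to 1.21 (median 0.394) in knockout lungs. Fcgr1 to Fcgr2b was 0.0698 to 0.304 (median 0.158) and 0.193 to 0.346 (median 0.220). For Fcer1g to Fcgr2b the ranges were 2.39 to 9.80 (median 6.08) and 2.79 to 6.62 (median 5.18). No ratio separated the genotypes, and the mean log2 differences, untested, were 0.19 for Fcgr3, 0.81 for Fcgr4, 0.70 for Fcgr1 and -0.17 for Fcer1g. With each lung left out in turn they ran from 0.03 to 0.27 for Fcgr3, from 0.41 to 1.12 for Fcgr4, from 0.49 to 0.91 for Fcgr1 and from -0.41 to -0.0060 for Fcer1g. The lowest values for Fcgr3, Fcgr4 and Fcer1g were those without IL-10 B-WT 2. That for Fcer1g was also -0.26 without IL-10 B-KO 2, -0.01 without IL-10 B-KO 3 and -0.0060 without IL-10 B-WT 5.

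**Figure D4:**
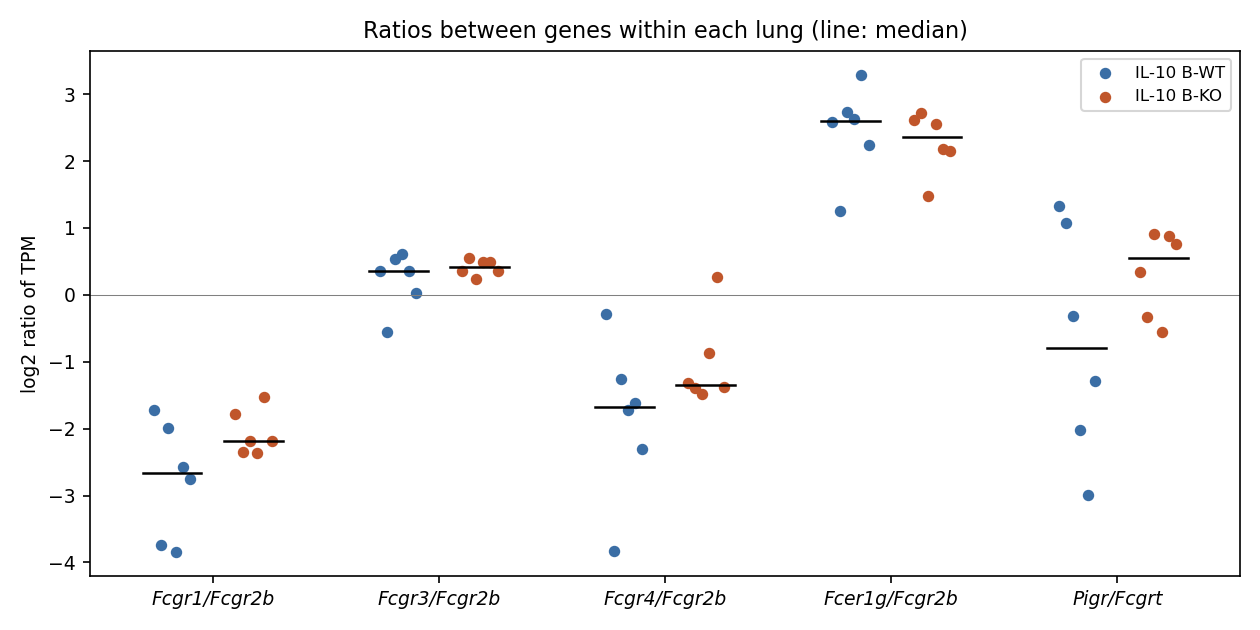
Points give the log2 ratio of TPM of 2 genes within each lung (blue IL-10 B-WT, orange IL-10 B-KO, 6 lungs each), with the group median as a line. The groups overlap for all 5 ratios, and that of Fcgr3 to Fcgr2b has the narrowest range among knockout lungs.

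Fcmr, the receptor for IgM on lymphocytes, had the lowest limma p of the 9 genes. In control lungs it was 10.4 to 129 TPM with a median of 15.4. In knockout lungs it was 0 to 14.4 TPM with a median of 0.605, and 5 of the 6 were below every control. The exception was IL-10 B-KO 2 at 14.4 TPM, followed by IL-10 B-KO 6 at 6.16 TPM, and the other 4 were at 1.00 TPM or less. The log2 fold change was -3.07 ± 0.75 (SE, n = 6 per group), the unadjusted limma p was 0.00115 and the adjusted p was 0.107 (exact permutation p = 0.00649).

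The call of Fcmr depended on single libraries and on the fit. In the 12 lungs it passed with array weights (limma adjusted p = 0.0252) and with a replicate block (adjusted p = 0.0148), and in no other setting. That block goes by library number, and libraries with the same number did not deviate together (correlations between -0.29 and 0.05). The numbers do not pair the lungs, so nothing is drawn from the pass with the block. With a lung left out Fcmr passed without IL-10 B-WT 1 (limma adjusted p = 0.0404) and without IL-10 B-KO 2 (adjusted p = 0.0298). In the other 10 such fits it did not, and over all 12 the adjusted p ran from 0.0298 to 0.252. Without IL-10 B-WT 2, whose 129 TPM was the highest value, the log2 fold change was -2.55 ± 0.65 (SE, n = 5 and 6). Under each of 20 other ways of processing or leaving out a lung, its log2 fold change was between -4.50 and -2.55.

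The B cell genes stood beside Fcmr. Of 12 B cell markers, 11 were lower in knockout lungs, 10 at the unadjusted limma limit of 0.05, and 1, Cd79a, passed the threshold (log2 fold change -4.16 ± 0.71, SE, n = 6 per group, limma adjusted p = 0.0222). Their summed level was 84.7 to 1213 TPM in control and 59.3 to 120.0 TPM in knockout lungs, and Cd72, the most abundant and the only one that was higher (0.62 ± 0.64, SE, n = 6 per group), is also expressed by myeloid cells. Cd79b, the next most abundant, differed by -1.90 ± 0.66 (SE, n = 6 per group). IL-10 B-KO 2 and IL-10 B-KO 6, which had the highest Fcmr of their group, also had the highest Cd79a and Ms4a1. Cd79a is also the locus that drives Cre in IL-10 B-KO mice, and an effect of that allele on its level was not tested. Among the 2 genes nearest to Fcmr with the genotype means removed was Pou2af1 (r = 0.954), a B cell coactivator. For the T cell markers 0 of 10 had an unadjusted p up to 0.05, with 4 higher and 6 lower, and Trac and Cd3g, the most abundant, differed by -0.29 ± 0.54 and 0.13 ± 0.52 (SE, n = 6 per group). For the NK cell markers it was 0 of 7, all of them higher but 1 after median centring, with Gzma and Klrk1 at 0.29 ± 0.48 and 0.66 ± 0.42 (SE, n = 6 per group). The part that B cell RNA has in the Fcmr level was not tested.

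Fcer2a, the low-affinity IgE receptor of B cells and some myeloid cells, did not separate the genotypes. It was 3.89 to 74.4 TPM (median 8.35) in control lungs and 4.74 to 14.9 TPM (median 6.22) in knockout lungs. The difference was -0.61 ± 0.55 (SE, n = 6 per group) on the log2 scale, with a limma adjusted p of 0.630 (exact permutation p = 0.409). Without IL-10 B-WT 2, the one lung at 74.4 TPM, it was -0.09 ± 0.35 (SE, n = 5 and 6). The 4 knockout lungs in which Cd79a was 0.05 TPM or less still held 4.74 to 6.88 TPM of Fcer2a. Its nearest genes over the 12 lungs were the B cell receptor gene Tnfrsf13c (r = 0.948) and the immunoglobulin segment Ighv1-26 (r = 0.947).

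**Figure D5:**
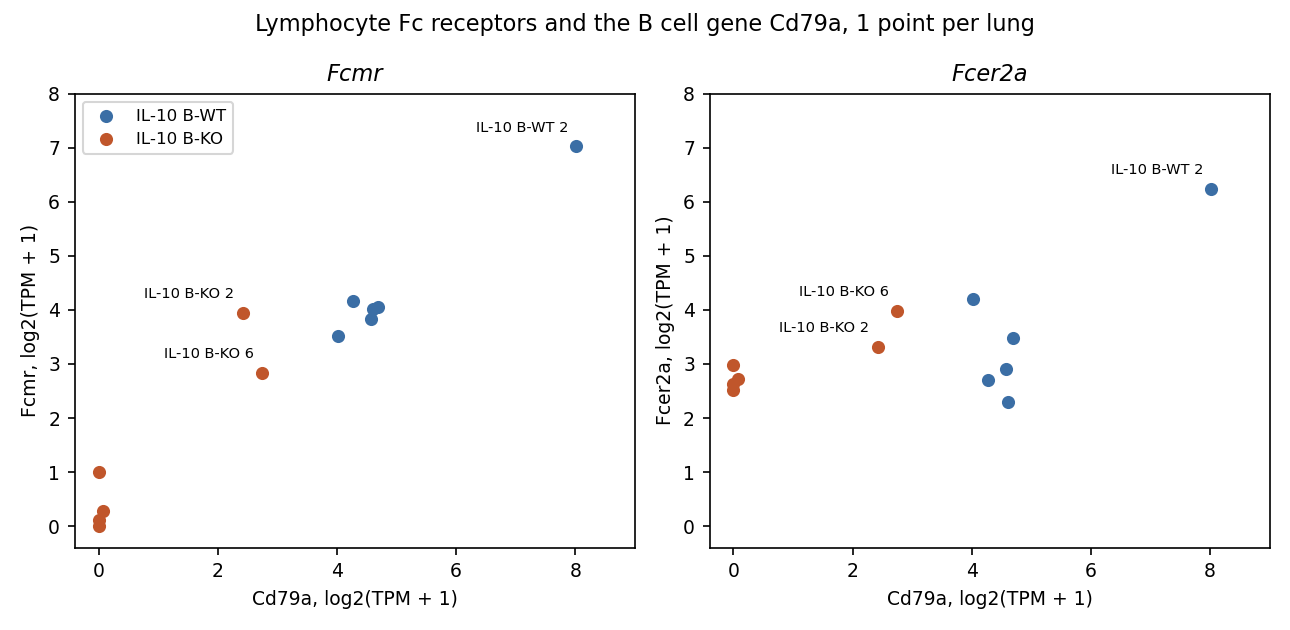
Each point is 1 lung, with Cd79a on the horizontal and Fcmr (left) or Fcer2a (right) on the vertical axis, all as log2(TPM + 1). The 4 knockout lungs with Cd79a at 0 to 0.05 TPM hold 1.00 TPM or less of Fcmr and 4.74 to 6.88 TPM of Fcer2a. Cd79a is also the locus that drives Cre in the knockout mice.

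Fcmr and Pigr are close neighbours of Il10. Pigr (chr1:130826684-130852249, plus strand) and Fcmr (chr1:130865669-130880791, plus strand) are 13.4 kb apart, and Il10 (chr1:131019845-131024974, plus strand) begins 139.1 kb after Fcmr, on GRCm38.p6. The coding genes between Fcmr and Il10 are Il24, Il20 and Il19, and none of them reached the filter on low values. The floxed gene and these receptor genes therefore lie on 1 stretch of 198.3 kb. In the 12 lungs Fcmr and Pigr differed by -3.07 ± 0.75 and 0.78 ± 0.57 (SE, n = 6 per group), neither past the threshold. An effect of the altered Il10 locus on either gene was not tested.

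Fcgrt was the steadiest of the 9 genes. It was 37.1 to 64.9 TPM (median 51.9) in control and 29.0 to 58.8 TPM (median 46.9) in knockout lungs, and its highest value was 2.24 times its lowest over all 12. The difference was -0.21 ± 0.18 (SE, n = 6 per group) on the log2 scale, with a limma adjusted p of 0.612 (exact permutation p = 0.251). With a lung left out it ran from -0.30 to -0.10, the latter without IL-10 B-KO 6. Its light chain partner B2m ran the other way, with 3326 to 9927 TPM (median 3962) in control and 6158 to 10624 TPM (median 8965) in knockout lungs. The B2m difference was 0.84 ± 0.30 (SE, n = 6 per group) with a limma adjusted p of 0.325, and B2m also serves the many class I molecules. Endothelial markers, from a cell type in which Fcgrt works, were lower for 9 of 10, 1 at the unadjusted limma limit of 0.05, with Egfl7 and Ramp2 at -0.20 ± 0.27 and -0.57 ± 0.39 (SE, n = 6 per group). The genes nearest to Fcgrt were Gfra4 (r = 0.893) and Apod (r = 0.892).

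Pigr had the higher median in knockout lungs, within the spread of the controls. It was 7.22 to 103 TPM (median 31.0) in control and 31.3 to 92.3 TPM (median 61.9) in knockout lungs. All 6 knockout lungs were above the control median, yet the control lungs numbered 1 and 2 exceeded every one of them. The difference was 0.78 ± 0.57 (SE, n = 6 per group) on the log2 scale, with a limma adjusted p of 0.551 (exact permutation p = 0.258). With a lung left out it ran from 0.38 without IL-10 B-WT 5 to 1.11 without IL-10 B-WT 2. The ratio of Pigr to Fcgrt within a lung was 0.126 to 2.51 (median 0.608) in control and 0.677 to 1.88 (median 1.48) in knockout lungs, a mean log2 difference of 1.03 that ran from 0.58 without IL-10 B-WT 5 to 1.44 without IL-10 B-WT 1. The genes nearest to Pigr were Limd1 (r = 0.996) and Edem2 (r = 0.988).

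Markers of airway secretory cells, which carry Pigr, varied widely and without a shared direction. Of 9, 6 were lower and 3 higher in knockout lungs and 0 had an unadjusted limma p up to 0.05. Their sum was 23520 to 101900 TPM in control and 9036 to 105800 TPM in knockout lungs, most of it Scgb1a1, and IL-10 B-KO 2 held the highest sum of all lungs. Scgb1a1 and Scgb3a2, the most abundant, differed by -1.12 ± 0.56 and -0.89 ± 0.75 (SE, n = 6 per group). Alveolar type 2 markers were higher for 9 of 9, 6 at the unadjusted limma limit of 0.05 and 0 past the threshold, and Sftpc and Sftpb, the most abundant, were at 0.45 ± 0.39 and 0.74 ± 0.33 (SE, n = 6 per group). The part of epithelial composition in the Pigr level was not tested.

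By median TPM, the order of the 9 genes in control lungs was Fcer1g, Fcgrt, Fcgr2b, Fcgr3, Pigr, Fcmr, Fcer2a, Fcgr4 and Fcgr1. There Fcer1g was above Fcgrt in 6 of 6 lungs, but Fcgrt exceeded Fcgr2b in only 3 of 6 and Fcer2a exceeded Fcgr4 in 3 of 6, so those neighbours did not differ beyond the spread. Fcgr2b, with the higher median, exceeded Fcgr3 in only 1 of 6, so that Fcgr3 was the higher of the pair in most lungs of both genotypes. The remaining neighbours were in this order in 4 or 5 of 6 lungs. In knockout lungs the order was Fcer1g, Fcgr3, Fcgr2b, Fcgr4, Pigr, Fcgrt, Fcgr1, Fcer2a and Fcmr. Fcer1g was above Fcgr3 and Fcgr3 above Fcgr2b in 6 of 6 lungs, whereas Fcgrt exceeded Fcgr1 in 3 of 6, and the remaining neighbours were in this order in 4 or 5 of 6.

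Kinases and adaptors of receptor signalling were mostly higher too, without passing. Among them, Tyrobp and Hcst are adaptors other than Fcer1g, the chain of the 3 activating receptors. Of 23 ITAM kinases and adaptors, 19 were higher and 4 lower in knockout lungs (18 and 5 after median centring), 3 of the higher ones at the unadjusted limma limit of 0.05, and 0 passed the threshold. Their median log2 fold change was 0.70. Tyrobp, the adaptor DAP12, ranged from 63.0 to 822 TPM in control and from 245 to 1160 TPM in knockout lungs, a difference of 1.64 ± 0.54 (SE, n = 6 per group). Hcst, the adaptor DAP10, differed by 0.91 ± 0.31 and the kinase Syk by 0.70 ± 0.48 (SE, n = 6 per group), Syk with an unadjusted limma p of 0.171.

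The inhibitory side was no different in direction. All 12 genes of the ITIM list were higher in knockout lungs (11 after quantile normalization), 5 at the unadjusted limma limit of 0.05 and 0 past the threshold, with a median log2 fold change of 0.99. The ITIM receptors Cd300a and Clec12a differed by 1.71 ± 0.49 and 1.65 ± 0.60 (SE, n = 6 per group). Inpp5d, the phosphatase that Fcgr2b recruits, differed by 0.49 ± 0.33 (SE, n = 6 per group) with an unadjusted limma p of 0.155. Of 22 phagocytosis and oxidase genes, 19 were higher and 3 lower, 5 and 2 of them at that unadjusted limit and 0 past the threshold. The lysosomal protease Ctsd was among the higher (1.00 ± 0.37, SE, n = 6 per group) and the actin-severing protein Gsn among the lower (medians of 609.8 TPM in control and 302.7 TPM in knockout lungs).

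On the transport side, 15 of 19 tested genes of transcytosis and recycling were higher and 4 lower, 0 at the unadjusted limma limit of 0.05 and 0 past the threshold, with a median log2 fold change of 0.26. After quantile normalization 13 were higher and 6 lower. Rab4a and Rab11fip5, which had the lowest p of that list, differed by -0.42 ± 0.20 and 0.57 ± 0.28 (SE, n = 6 per group). Of 19 tested receptors and factors that induce Pigr, 17 were higher and 2 lower, 1 at that unadjusted limit and 0 past the threshold, and 14 were higher and 5 lower after median centring. The 1 was Tlr4, the LPS receptor (0.60 ± 0.27, SE, n = 6 per group), followed by Il4ra (0.73 ± 0.34, SE, n = 6 per group).

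Among other Fc receptors and antibody-binding genes, 9 of 13 were tested, 5 higher and 4 lower, 3 and 2 of them at the unadjusted limma limit of 0.05 and 0 past the threshold. Fcrla, an intracellular Fc receptor-like protein of B cells, ranged from 5.04 to 56.1 TPM in control and from 0.600 to 5.29 TPM in knockout lungs (-1.70 ± 0.52, SE, n = 6 per group). The myeloid receptor Cd300lf differed by 2.36 ± 0.80 (SE, n = 6 per group). Fcer1a and Ms4a2, the chains that join Fcer1g in the high-affinity IgE receptor of mast cells and basophils, stayed at or below 0.730 TPM in every lung and were not tested. Of the mast cell and basophil markers only 3 of 9 were tested, all of them lower, 2 at the unadjusted limma limit of 0.05 and 0 past the threshold, with Kit and Cma1, the most abundant, at -0.65 ± 0.26 and -0.26 ± 0.36 (SE, n = 6 per group). Kit, 1 of those 2, was 39.1 to 136 TPM in knockout lungs, where Cma1 stayed at or below 3.22 TPM. The cells that Kit RNA came from were not tested, so Kit may not mark mast cells in whole lung.

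Some of the genes of the ligands passed the threshold, while none of the 9 genes did. Of 13 antibody genes, 10 were tested, and all 10 were lower in knockout lungs at the unadjusted limma limit of 0.05, with 6 past the threshold. Ighm, for the heavy chain of IgM, did not pass (-1.81 ± 0.60, SE, n = 6 per group, limma adjusted p = 0.285). Ighe, for the heavy chain of IgE, did not reach the filter on low values. Igha encodes the IgA heavy chain that Pigr carries. It ranged from 299.7 to 10354 TPM (median 2333) in control lungs and from 0.150 to 17.4 TPM (median 1.11) in knockout lungs (-9.21 ± 0.85, SE, n = 6 per group, limma adjusted p = 0.000397). Jchain, which links IgA and IgM into the polymers that Pigr binds, ranged from 32.0 to 2170.1 TPM in control and from 0.0300 to 2.96 TPM in knockout lungs (limma adjusted p = 0.000662). The groups did not overlap for either gene, as for 0.924% of all tested genes in that direction. Among plasma cell markers 5 of 6 tested genes were lower and 1 was higher, with 2 past the threshold, Jchain among them. Jchain and Xbp1 were the most abundant, and Xbp1 differed by -0.04 ± 0.20 (SE, n = 6 per group). These are transcripts in the lung and not antibody protein, which also arrives from blood.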

How the data were processed

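Total RNA of whole lung was sequenced on an Illumina platform, and the authors deposited 1 table of TPM values for 12 libraries, without pooling. Per the labels and the submitters' processing notes, reads were trimmed with fastp, aligned with HISAT and counted with RSEM on GRCm38.p5. Their versions and the annotation release are not given in the sources used here, and GRCm38.p6 coordinates were looked up by gene ID. Columns were matched to samples by name. TPM share a fixed total per library, so a large change in a few abundant genes shifts the others.

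Genes with 1 TPM or more in 6 or more libraries (15148) were tested with limma 3.58.1 (lmFit and eBayes with a trend, R 4.3.3) on log2(TPM + 1), genotype being the single term, with Benjamini-Hochberg adjustment. The adjusted p limit is the one the study gives for limma. Its limit on fold change, stated as 1 without a scale, was read here as log2. The script was tested on simulated data. Exact permutation tests over lungs enumerated every arrangement in Python 3.11.15 with NumPy 2.4.6. Count models were not run, since TPM are not counts.

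The 9 genes, the gene lists and the tests were chosen with earlier results of these data known, and the promoter motifs and the omission of 2 libraries together were chosen after the values had been seen. Genes outside the 9 were named by rule. In each pathway list these are the 2 with the lowest p, and in marker lists the 2 with the highest mean, plus B2m, Syk, Inpp5d, Jchain and label checks, and the 2 nearest by correlation for each of the 9, of which 2 genes are not reported here. Genes whose values were needed beside a result (Ms4a1, Cd72, Ighm, Ighe, the genes at the same locus, Fcer1a and Ms4a2) were added after seeing them. RefSeq promoter windows were matched by symbol for 9 of 9 genes. Alternatives were another pseudocount, filter, scaling or weighting, a replicate block, and each lung left out in turn.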

Additional observations from a re-analysis of the deposited data

Results flagged for a closer look

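In groups of 6, the gap between an extreme lung and its nearest neighbour was divided by the range of the group. Both were taken on the log2(TPM + 1) scale, not on TPM, and a share above 0.625 was taken as standing apart. Of 18 groups examined (9 genes in 2 genotypes), 4 held such a lung, where chance alone marks about 5% of groups, and the genes are not independent of each other. IL-10 B-KO 2 stood apart at the low end for Fcgr3 (0.6695), for Fcer1g (0.7512) and for Fcgr2b (0.6485), with 47.0, 213 and 32.1 TPM where the other 5 knockout lungs held at least 189, 783 and 134 TPM. The same lung held the lowest macrophage marker sum of its group (1051 TPM) and the highest airway secretory marker sum of all lungs (105800 TPM). IL-10 B-WT 2 stood apart at the high end for Fcmr (0.8144), with 129 TPM where the other control lungs held 10.4 to 16.9 TPM, and its summed B cell markers were at 1213 TPM, against 229.2 TPM in the next control lung.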

How the results depend on the processing

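The direction of all 9 genes held in each of 20 alternatives, with 0 reversals. Of the 9 genes, 0 passed in the 12 lungs, 1 (Fcmr) with array weights and 1 (Fcmr) with a replicate block, and between 0 and 5 with each lung left out, 5 being without IL-10 B-WT 1, beside 3.85% of all tested genes. With IL-10 B-KO 2 left out as well as IL-10 B-WT 1, chosen after seeing the data, 6 passed. At an unadjusted limma p up to 0.05 there were 6 of 9, and between 3 and 6 with a lung left out, 3 being without IL-10 B-WT 5. Over all genes, 75 passed in the 12 lungs, 6 without a filter on low TPM, 27 when rescaled without immunoglobulin genes, 39 after quantile normalization, 36 after median centring and 318 with array weights. It was 1430 without those 2 lungs and 15 to 576 with 1 lung left out, 15 being without IL-10 B-KO 5 and 576 without IL-10 B-WT 1. The causes were not tested.

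With lungs left out, the mean log2 differences of the 5 ratios between genes moved by less than 1 SD pooled over both genotypes; that of Fcgr3 to Fcgr2b moved by more than the SD of the knockout lungs without IL-10 B-WT 2 (from 0.19 to 0.03, SD 0.115). Quantile normalization took the median log2 fold change of all genes from 0.10 to 0.01, and median centring to -0.01. Libraries with the same number did not deviate together (correlations between -0.29 and 0.05), so the numbers do not pair the lungs, and with the replicate block 45 of all genes passed, with Fcmr at a limma adjusted p of 0.0148. TPM keep no depth, so the counting error of low values such as Fcmr in knockout lungs is unknown.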
